A study of Mus musculus with 2 samples.

Results

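The genes described here are those of potassium, sodium and calcium channels, taken by symbol: potassium channel genes beginning with Kcn, sodium channel genes beginning with Scn, and calcium channel subunit genes beginning with Cacn. The rule used no measured value and found 131 of the 27998 genes listed. They were read in 2 libraries of single-cell RNA sequencing (scRNA-seq) from newborn C57BL/6 mice at postnatal day 0, 1 library of WT mice and 1 of mice with the genotype STINGf/f;Nestin-Cre (STING cKO), to ask how the STING cKO brain differs from WT cell by cell. The STING gene (Tmem173) carries loxP sites in the STING cKO mice, and Nestin-Cre removes it in neural stem cells and their progeny, so that microglia and most vessel cells are outside the targeted lineage. The labels call the control WT, whereas the study names its control both STING fl/fl and WT, and whether it carried Cre is not stated. The number of mice behind each library is not stated. With 1 library per genotype there is no replicate, so what is compared throughout is 1 library with another, and all intervals cover counting error only.

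Ion channels are membrane pores that open to voltage, ligands or second messengers and so set the resting potential and firing of a cell. Sodium channels start the action potential, potassium channels end it and hold the membrane at rest, and calcium channels couple depolarisation to transmitter release and gene expression. Each pore-forming subunit works with auxiliary subunits that alter its gating and its delivery to the membrane. In the newborn cortex most neurons have only begun to fire, while astrocytes and oligodendrocyte precursors already carry potassium channels that take up or buffer potassium.

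The WT library held 69554624 unique molecular identifiers (UMIs, 1 per captured molecule) in 10715 barcodes, and the STING cKO library 67448785 in 9198. Once shallow cells, cells rich in mitochondrial RNA and doublets were left out, 6609 WT and 5979 STING cKO cells remained, with medians of 6559 and 7537 UMIs. The libraries shared 19 barcodes, 8 of them among these cells. Mitochondrial RNA above 10% was found in 35.9% of WT and 32.9% of STING cKO barcodes. Tmem173 gave 128 UMIs in WT and 18 in STING cKO cells, mostly in endothelial-like, microglia-like and unnamed cells. STING cKO had fewer cells of each kind. In radial glia/astrocyte-like cells, which descend from the targeted lineage, Tmem173 gave 10 and 1. Neuron groups had 0 UMIs in both libraries, except newborn projection neuron-like cells with 2 and 0. The deletion could thus not be read in neurons. Tmem173 was lower in STING cKO also outside the targeted lineage, with 45 and 9 UMIs in endothelial-like and 24 and 3 in microglia-like cells. As CPM, defined below, endothelial-like cells had 24.2 (Poisson interval 17.6 to 32.3) and 10.2 (4.67 to 19.4), which overlap. Microglia-like cells had 34.9 (22.3 to 51.9) and 6.64 (1.37 to 19.4) CPM. Cells were clustered without the channel genes and named from markers, and 12 groups had at least 50 cells in each library. The clusters that carried no name held 10.8% of WT and 5.15% of STING cKO cells. A small cluster of 64 WT and 92 STING cKO cells scored highest for intermediate progenitor markers, but Tac2, Mfap4, Neurod1, Lhx9 and Calb2 led it, so it is called the Tac2/Mfap4 cluster. The larger of the 2 deep-layer projection neuron-like clusters (272 and 236 cells) had no marker of its name among its 10 leading genes, and the smaller (84 and 147 cells) was led by Nts, Hs3st4 and Nxph3. Among upper-layer projection neuron-like cells, 2 clusters likewise had none. Olfactory bulb-type neuroblast-like cells were a single cluster (183 and 155 cells) led by Foxp2, Pbx3, Tshz1 and Six3, with 1 marker of its name and 1 of another type among its 10 leading genes. A larger cluster (554 and 231 cells) that scored highest for the same name was led by Dlx6os1, Sp8, Sp9 and Dlx1, held more markers of another type, and made up most of the cells without a name. Values below for olfactory bulb-type neuroblast-like cells are those of the Foxp2/Pbx3 cluster alone, and its name is tentative.

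The libraries stood apart in some of the neuron groups. Cells were clustered with each gene centred within its library, and without that step the upper-layer projection neuron-like and striatal neuron-like clusters were nearly all of 1 library. The former then held, for example, 866 WT and 0 STING cKO cells or 0 and 720, and the latter 438 and 5 or 30 and 337. Newborn projection neuron-like cells were split as well, with for example 663 and 2 in 1 cluster and 155 and 306 in another. Most STING cKO cells of this kind were in other clusters. Radial glia/astrocyte-like (351 and 349 in the largest cluster) and oligodendrocyte precursor-like clusters (318 and 185) held both libraries. Centring acts on the grouping of cells and leaves the UMI counts as they are. On groups drawn without it, 32 pairs of channel gene and large cell group were higher and 68 lower of 481 by the fold defined below, and 2 genes were lower and 1 higher in every group compared. With centring the pairs were 31 and 68 of 489. The share over all genes on the uncentred groups is not given here, so these counts are not read as particular to channel genes.

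Of the 131 channel genes, 123 had at least 1 UMI in each library, 94 at least 20 and 74 at least 100. The potassium channel genes Kcng4 and Kcnk16 and the muscle sodium channel gene Scn4a had none in either library. Among pore-forming genes, 33 of 40 voltage-gated potassium channel (Kv) genes, 8 of 14 two-pore-domain potassium channel genes, 8 of 15 inward rectifier genes, 4 of 9 sodium channel genes and 8 of 10 calcium channel alpha1 genes reached 20 UMIs in each library. Of the auxiliary genes, 8 of 11 for Kv channels, 2 of 4 sodium channel beta genes, 3 of 4 alpha2delta, all 4 calcium channel beta and 7 of 8 gamma genes did. The neonatal sodium channel gene Scn2a is listed as Scn2a1 and falls outside the symbol rule, so it is given with the partner genes. CPM is the UMI count scaled to a fixed total of UMIs over the same cells, either a cell group or all kept cells of a library. Summed over the 131 genes, the level in all kept cells was 1629 CPM in WT and 1559 in STING cKO. It was highest in Cajal-Retzius-like cells (3260 and 2726 CPM) and deep-layer projection neuron-like cells (2477 and 2054 CPM), and lowest in endothelial-like (328 and 274 CPM) and microglia-like cells (317 and 328 CPM). Oligodendrocyte precursor-like cells reached 2161 and 1910 CPM, above the 1862 and 1666 CPM of upper-layer projection neuron-like cells. The channel genes therefore formed a larger share of RNA in these precursors than in upper-layer projection neuron-like cells in both libraries.

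Which cells carried each channel gene was read separately in each library. Of 85 channel genes with at least 50 UMIs in each library, 52 (61.2%) were highest in the same cell group of the 12 in WT and in STING cKO. Over all genes with that minimum the share was 56.4%, so the channel genes kept their leading cell group about as often as other genes. Cajal-Retzius-like cells led in both libraries for 13 of the 85 (15.3%, all genes 7.95%) and deep-layer projection neuron-like cells for 9 (10.6%, all genes 3.83%). Interneuron-like cells led for 7 (8.24%, all genes 1.22%) and oligodendrocyte precursor-like cells for 6 (7.06%, all genes 4.71%). The share of channel genes lay below that of all genes for endothelial-like cells (2 of 85, 2.35%, all genes 12.5%), radial glia/astrocyte-like cells (2 of 85, all genes 9.03%) and cycling progenitor-like cells (0 of 85, all genes 7.39%).

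**Figure D1:**
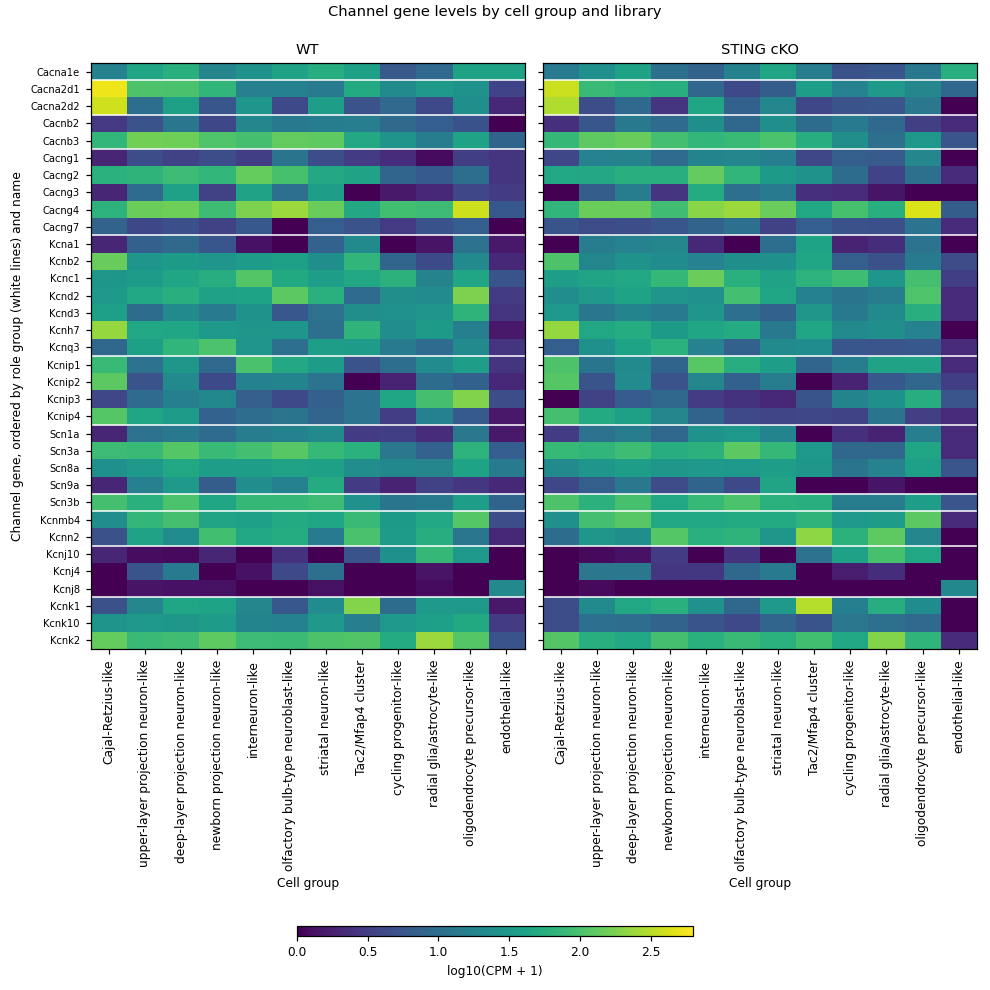
Levels of the 34 channel genes that the text names and that had at least 100 UMIs in each library, as log10 of CPM plus 1, in the WT library on the left and the STING cKO library on the right. Each column is a cell group with at least 50 cells per library and each row a gene, ordered by role. Read along a row, Cacna2d1 and Cacna2d2 are brightest in Cajal-Retzius-like cells and Cacng4 in oligodendrocyte precursor-like cells in both libraries.

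Cajal-Retzius cells are early-born neurons of the cortical surface that secrete reelin. Cacna2d1 and Cacna2d2 encode alpha2delta subunits, which bring calcium channels to the membrane and bind gabapentin. Cacna2d1 stood at 539 CPM in WT (95% Poisson interval 495 to 586) and 372 in STING cKO (340 to 405) in Cajal-Retzius-like cells. The next group, upper-layer projection neuron-like cells in both libraries, had 103 and 76.1 CPM of Cacna2d1. Cacna2d2 stood at 398 CPM (361 to 439) and 293 CPM (265 to 323) in Cajal-Retzius-like cells, and no other group exceeded 44.7 CPM in either library. Kcnip2, a calcium-binding subunit of A-type Kv channels, stood at 122 and 115 CPM there and at most at 21.3 CPM in the other groups. Kcnh7, of the Erg potassium channel family, had 224 CPM in each library there, and its log2 ratio of STING cKO over WT was 0.00 (-0.25 to 0.25). These 4 genes and Kcnk1, described below, were the channel genes at least 3 times above the next group in both libraries with at least 20 UMIs there. They were 5 of the 61 channel genes with that many UMIs in the leading group of each library (8.20%, all genes 9.6%), a share near that of other genes. That count of 5 was 0 with a stricter cell filter (1000 genes or more, and no more than 5% of UMIs mitochondrial), 10 with no cell filter and 8 at a clustering resolution of 0.5. The share over all genes was taken in the main setting only. The alpha2delta genes differed by library also within these cells, with log2 ratios of -0.54 (-0.71 to -0.36) for Cacna2d1 and -0.44 (-0.64 to -0.24) for Cacna2d2, both short of a doubling. Kcnb2, a delayed rectifier Kv gene, was likewise highest there, at 139 and 105 CPM.

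Kcnk1, encoding the two-pore-domain channel TWIK-1, which carries a resting leak current, was highest in the Tac2/Mfap4 cluster. The WT library had 190 CPM of Kcnk1 there (152 to 233), and the STING cKO library 309 CPM (269 to 353). The next highest group of the 12 was at 43.7 CPM in WT and 58.3 CPM in STING cKO. Kcnn2, a small-conductance calcium-activated potassium channel gene (SK2), was also high in this cluster, at 96.9 and 209 CPM. Newborn projection neuron-like cells had 87.5 and 116 CPM of Kcnn2, and upper-layer projection neuron-like cells only 40.6 and 29.6. Both genes were therefore higher in the Tac2/Mfap4 cluster than in upper-layer projection neuron-like cells in both libraries. Kcnq3, an M-current channel gene, was highest in newborn projection neuron-like cells, at 99.4 and 60.2 CPM.

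Interneuron-like cells led for Kcnc1, Kcnip1 and Cacng2. Kcnc1 (Kv3.1), which allows fast spiking in mature interneurons, stood at 111 CPM (98.2 to 124) in WT and 145 CPM (134 to 158) in STING cKO. Kcnip1, another A-type channel subunit, stood at 98.0 and 118 CPM in interneuron-like cells, followed in both libraries by Cajal-Retzius-like cells with 77.0 and 104 CPM. Cacng2 (stargazin), a calcium channel gamma subunit that also escorts AMPA receptors, stood at 135 and 132 CPM. Interneuron-like cells held 2 large clusters that differed in channel genes. The cluster led by Maf, Lhx6 and Nxph1 had 50.1 CPM of Cacna2d2 in WT and 72.5 in STING cKO, against 5.52 and 3.31 in the cluster led by Npas1, Adarb2 and Htr3a. It also had more Kcnip2 (35.8 and 30.9 CPM against 0.789 and 1.33) and more Cacng3 (61.7 and 77.3 CPM against 10.3 and 9.27). Kcnc1 went the other way, at 72.5 and 91.0 CPM in the Maf/Lhx6 cluster and 159 and 231 CPM in the Npas1/Adarb2 cluster. Cacnb2, a calcium channel beta subunit gene, did as well, with 8.95 and 9.28 against 26.8 and 45.7 CPM. These 5 genes were picked out after their cluster values were seen, and each pattern was present in both libraries.

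Among sodium channel genes, Scn3a, the alpha subunit typical of embryonic brain, was spread over all neuron groups. It stood at 114 and 83.2 CPM in deep-layer projection neuron-like cells and at 117 and 124 CPM in olfactory bulb-type neuroblast-like cells, but at only 6.62 and 7.56 CPM in radial glia/astrocyte-like cells. Scn8a, the alpha subunit of mature axon initial segments, ranged from 27.8 to 45.6 CPM over the projection neuron-like and interneuron-like groups. Scn1a, which is prominent in adult fast-spiking interneurons, was low at this age, at 14.1 CPM in WT and 25.6 CPM in STING cKO interneuron-like cells. Scn9a was highest in striatal neuron-like cells, at 51.8 and 42.6 CPM. Of the beta subunits, Scn3b was broad in neurons. Scn4b had 23 and 7 UMIs in ependymal-like cells, a group of 43 and 12 cells below the minimum size, and 0 in 11 of the 12 groups compared. Cacnb3, the calcium channel beta subunit of developing neurons, followed the same neuronal pattern, with 159 and 128 CPM in upper-layer projection neuron-like cells against 13.9 and 9.79 CPM in radial glia/astrocyte-like cells.

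**Figure D2:**
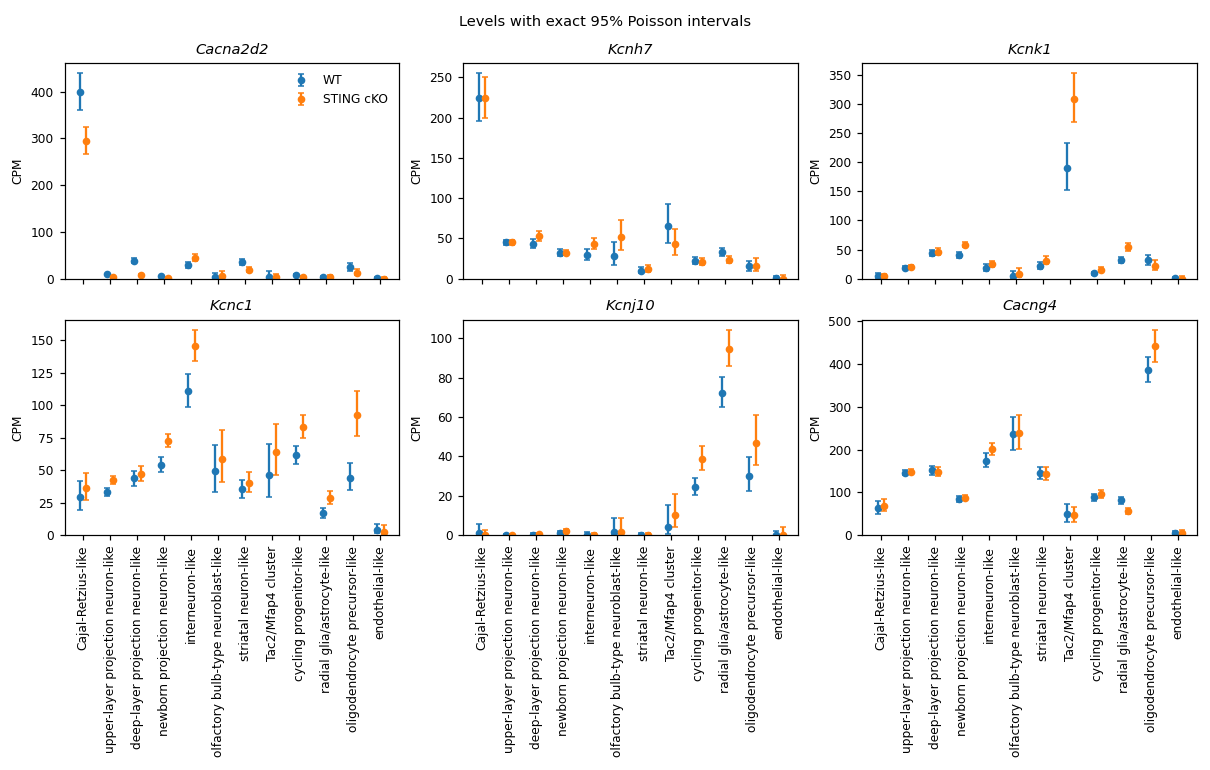
Levels in CPM of 6 channel genes in the 12 cell groups with at least 50 cells per library, WT in blue and STING cKO in orange, with bars for the exact 95% Poisson interval. Cacna2d2 and Kcnh7 peak in Cajal-Retzius-like cells, Kcnk1 in the Tac2/Mfap4 cluster, Kcnc1 in interneuron-like, Kcnj10 in radial glia/astrocyte-like and Cacng4 in oligodendrocyte precursor-like cells, in both libraries.

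Glial groups had their own channel genes. Kcnj10 (Kir4.1), the main inward rectifier of astrocytes and the channel behind potassium buffering, stood at 72.4 CPM (65.0 to 80.4) in WT and 94.8 CPM (86.0 to 104) in STING cKO radial glia/astrocyte-like cells. It was lower in oligodendrocyte precursor-like cells (30.2 and 47.0 CPM) and cycling progenitor-like cells (24.5 and 38.7 CPM), and at or below 2.05 CPM in every projection neuron-like, interneuron-like and striatal neuron-like group. Kcnj10 was a glial gene in both libraries. Kcnj16 (Kir5.1), which forms mixed channels with Kir4.1, did not follow it between libraries. It had 54 UMIs (11.2 CPM, 8.39 to 14.6) in WT and 3 UMIs (0.667 CPM, 0.138 to 1.95) in STING cKO radial glia/astrocyte-like cells, a log2 ratio of -4.06 (-6.39 to -2.44). Kcnk2 (TREK-1), a mechanosensitive and lipid-sensitive leak channel, stood at 237 and 191 CPM in radial glia/astrocyte-like cells, its highest group in both libraries. Within that group Kcnmb4, the neuronal beta subunit of BK channels, stood at 80.8 and 76.6 CPM in the cluster led by Aqp4 and at 8.65 and 7.80 CPM in the cluster led by Aldoc and Clu, a contrast picked out after its values were seen.

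In oligodendrocyte precursor-like cells, Cacng4, a gamma subunit that also escorts AMPA receptors, stood at 386 CPM (357 to 416) in WT and 441 CPM (405 to 480) in STING cKO. The next group, olfactory bulb-type neuroblast-like cells, had 236 and 239 CPM of Cacng4. Kcnd2 (Kv4.2), the A-type channel gene, stood at 174 CPM (155 to 195) and 105 CPM (87.4 to 124), and Kcnd3 at 65.6 and 56.8 CPM, both highest in these precursors. Their partner Kcnip3 is described with the library differences.

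Microglia and most vessel cells are outside the Nestin-Cre lineage, although Tmem173 was lower in them as well. Kcnj8 (Kir6.1), the ATP-sensitive inward rectifier of pericytes, was nearly confined to clusters that carried no name. In the cluster led by Rgs5, Vtn and Higd1b together with Cldn5, Kcnj8 had 982 UMIs in 67 WT cells (482 CPM) and 116 UMIs in 15 STING cKO cells (239 CPM). In the cluster led by Vtn, Rgs5 and Col3a1, it stood at 1190 and 732 CPM, with 30 and 26 cells. Endothelial-like cells had 19.9 and 19.3 CPM of Kcnj8, and every other named group at most 0.421 CPM. Over all cells Kcnj8 stood at 23.8 CPM in WT and 4.85 CPM in STING cKO. Both its level within these clusters and the number of their cells (97 and 41) were lower in STING cKO, and the part of each was not tested. Its sulfonylurea receptor partner Abcc9 went with it, with 607 of 646 WT and 225 of 248 STING cKO UMIs in clusters without a name. Kcnk13 (THIK-1), the leak channel of microglia, stood at 40.7 CPM (27.0 to 58.8) and 31.0 CPM (16.9 to 52.0) in microglia-like cells and at most at 4.06 CPM in the 12 groups compared. Kcnj2 (Kir2.1), which senses potassium in brain capillaries, was highest in endothelial-like cells, at 22.6 and 17.0 CPM.

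The libraries were then compared within cell groups. A gene was taken as past the fold where its log2 ratio of STING cKO over WT, with 0.5 UMIs added to each side, lay at least 1 unit from that of the median gene of the group, among genes with at least 20 UMIs over both libraries. The median gene itself stood at -0.20 in upper-layer, -0.19 in deep-layer and -0.13 in newborn projection neuron-like cells and between -0.10 and -0.04 in the other large groups. Over the 7 groups with at least 200 cells in each library, 31 of 489 pairs of channel gene and group were higher in STING cKO (6.34%, against 6.26% of pairs over all genes), and 68 were lower (13.9%, against 12.6%). As a set, the channel genes were past the fold about as often as other genes. In upper-layer projection neuron-like cells 8 of 90 were higher (all genes 7.87%) and 12 lower (15.1%). In newborn projection neuron-like cells 6 of 75 were higher (6.77%) and 9 lower (14%). Interneuron-like cells had 1 of 69 higher (6.49%) and 9 lower (13.1%), and striatal neuron-like cells 6 of 63 higher (7.33%) and 9 lower (13.3%). Cycling progenitor-like cells had 4 of 52 higher (4.82%) and 4 lower (10.3%), and radial glia/astrocyte-like cells 4 of 57 higher (4.87%) and 7 lower (10.1%). Of the smaller groups, oligodendrocyte precursor-like cells had 4 of 47 channel genes higher (6.13%) and 6 lower (11%), and Cajal-Retzius-like cells 0 of 44 higher (4.56%) and 4 lower (7.99%). The Tac2/Mfap4 cluster had 3 of 25 higher (7.49%) and 2 lower (11.7%), and olfactory bulb-type neuroblast-like cells 2 of 26 higher (7.56%) and 1 lower (12%). Endothelial-like cells had 0 of 9 higher (8.5%) and 3 lower (14.5%). The clusters without a name (712 WT and 308 STING cKO cells of mixed kinds) stood outside the 7 groups. They had 3 of 53 channel genes higher (6.41%) and 13 lower (13.7%).

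Among these 7 groups, deep-layer projection neuron-like cells stood furthest from the background, with 18 of 83 channel genes lower in STING cKO (21.7%, all genes 12.6%) and 2 higher (all genes 5.75%). Their median channel gene lay 0.26 below the median of all genes on the log2 scale. With at least 100 UMIs per gene required, 6 of 56 were lower (all genes 8.70%), in the larger deep-layer cluster alone 15 of 79 were (all genes 11.3%), and in the smaller, Nts-led cluster alone 14 of 67 were (all genes 12.1%). The genes that were lower included Cacna2d2, with 198 UMIs (37.9 CPM, 32.8 to 43.6) in WT and 45 (7.98 CPM, 5.82 to 10.7) in STING cKO. In the larger cluster Cacna2d2 stood at 48.3 and 8.13 CPM, and in the Nts/Hs3st4 cluster at 11.5 and 7.79 CPM. The difference in Cacna2d2 was thus carried by the larger cluster, and it varied with how cells were grouped. Its log2 ratio was -2.25 (-2.75 to -1.77) here, and between -1.20 and -0.54 when groups were drawn with no or a stricter cell filter, at a finer resolution, in each library alone or from marker scores. Kcng1, a silent Kv subunit, had 67 and 10 UMIs (12.8 and 1.77 CPM). Cacng3, an AMPA receptor-associated gamma subunit, had 204 and 79 UMIs (39.1 and 14.0 CPM). Scn9a had 164 and 69 UMIs (31.4 and 12.2 CPM). Scn2b, whose product anchors mature sodium channels, had 32 UMIs in WT and 0 in STING cKO. With 3 counts in place of the 0 it would be 11.5-fold lower, with no allowance for counting error in WT. The 2 genes higher in these cells were Kcna1 and Cacng1.

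**Figure D3:**
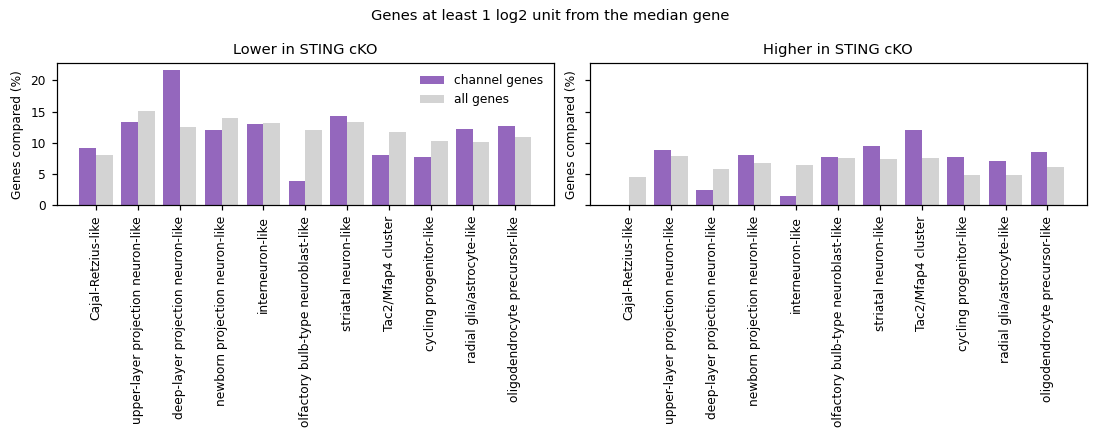
Channel genes (purple) and all genes (grey) at least 1 log2 unit below (left) or above (right) the median gene of the cell group, as a percent of genes with at least 20 UMIs over both libraries, for 11 cell groups with at least 25 channel genes compared. The purple bar of deep-layer projection neuron-like cells on the left, at 21.7%, is the tallest of those shown, against 12.6% of all genes. Clusters without a name, with 13 of 53 channel genes lower against 13.7% of all genes, are not shown.

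By role, the counts are read against the 6.26% higher and 12.6% lower of all genes. Kv alpha genes had 12 pairs higher and 17 lower of 157, and calcium channel alpha1 genes 0 higher and 2 lower of 52. Among Kv auxiliary genes 10 of 47 pairs were lower, 7 of them from Kcnip3, and among two-pore-domain genes 7 of 32, all 7 from Kcnk10, while 2 pairs were higher in each of these roles. Calcium channel gamma genes had 8 pairs higher, 7 of them from Cacng1, and 7 lower of 45. Sodium channel alpha genes had 0 pairs higher and 3 lower of 24, all 3 from Scn9a, and sodium channel beta genes 1 higher and 3 lower of 15, all 3 from Scn2b. Inward rectifier genes had 3 pairs higher and 6 lower of 19, and calcium- or sodium-activated potassium channel genes 2 higher, both from Kcnn2, and 9 lower of 49, 5 of them from Kcnn1. Alpha2delta genes had 0 higher and 4 lower of 21, and calcium channel beta genes 1 higher and 0 lower of 28.

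A gene can differ in the same direction wherever it is made. Of 53 channel genes compared in at least 6 of the 9 groups with at least 150 cells per library, 2 were lower in STING cKO in every group compared, Kcnk10 and Kcnip3 (all genes 2.02%), and 1 was higher in every group, Cacng1 (all genes 0.385%). The count of genes higher in every group was 0 with a minimum of 1, 10 or 100 UMIs, with no or a stricter cell filter and with each library clustered alone. The count of genes lower in every group was 0 with a stricter cell filter, and 1 with each library clustered alone or a minimum of 1 UMI. Another 28 of the 53 (52.8%) were past the fold in no group, against 52.2% of all genes. Kcnip4 and Cacng7 were past the fold in both directions in different groups (all genes 1.32%), Cacng7 only just, at -1.07 and 1.00.

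Kcnk10 (TREK-2) is a two-pore-domain leak channel opened by stretch, warmth and lipids. It lies on chromosome 12 (GRCm38 chr12:98429437-98578310, minus strand) and had 1564 UMIs in WT and 442 in STING cKO cells. Newborn projection neuron-like cells had 34.7 CPM (30.2 to 39.6) in WT but 6.74 CPM (5.24 to 8.53) in STING cKO. In upper-layer projection neuron-like cells it stood at 30.3 and 9.44 CPM, in radial glia/astrocyte-like cells at 37.0 and 9.79 CPM, and in oligodendrocyte precursor-like cells at 48.7 and 8.11 CPM. Kcnk10 was lower in the STING cKO library in each of these groups. Its log2 ratios ran from -2.59 (-3.70 to -1.64) in oligodendrocyte precursor-like cells to -1.37 (-1.85 to -0.91) in cycling progenitor-like cells. Its paralog Kcnk2 had 93.9 and 73.5 CPM over all cells. It lay below the median gene in all 9 groups compared, the same side as Kcnk10, but past the fold in 0 of them, with relative log2 values of Kcnk2 from -0.76 in deep-layer projection neuron-like to -0.087 in cycling progenitor-like cells.

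Kcnip3 (DREAM, calsenilin) encodes a calcium-binding protein that serves both as a Kv4 channel subunit and as a transcriptional repressor. It lies on chromosome 2 (GRCm38 chr2:127456498-127522094, minus strand) and had 1456 UMIs in WT and 431 in STING cKO cells. It was highest in oligodendrocyte precursor-like cells, with 184 CPM (164 to 205) in WT but 55.2 CPM (42.8 to 69.9) in STING cKO, where its channel partners Kcnd2 and Kcnd3 were also highest. Radial glia/astrocyte-like cells had 94.3 CPM (85.8 to 103) of Kcnip3 in WT but 24.5 CPM (20.1 to 29.5) in STING cKO, and the log2 ratio was -1.95 (-2.26 to -1.64). Cycling progenitor-like cells had 43.5 and 17.5 CPM, and newborn projection neuron-like cells 19.4 and 7.62 CPM. The order of these 4 groups for Kcnip3 was the same in both libraries, at a lower level in STING cKO. The radial glia/astrocyte-like group held more cells of the Aqp4 cluster in WT (326 and 175) and similar numbers of the Aldoc/Clu cluster (316 and 312). Within the Aqp4 cluster Kcnip3 stood at 121 and 28.1 CPM, and within the Aldoc/Clu cluster at 76.1 and 24.8 CPM, lower in STING cKO in both. Of the related genes in radial glia/astrocyte-like cells, Kcnip2 and Kcnip4 lay at -0.77 and -0.47 relative to the median gene, the same side as Kcnip3 but short of the fold. Kcnip1 stood at 21.7 CPM in WT and 40.3 in STING cKO, a direction that was lost when each library was clustered alone.

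The difference in Kcnip3 was seen also in the share of cells. With every cell thinned to 1000 UMIs, 63 of 670 WT radial glia/astrocyte-like cells had a Kcnip3 UMI (9.40%, 95% Clopper-Pearson interval 7.30 to 11.9) and 14 of 510 STING cKO cells (2.75%, 1.51 to 4.56). In oligodendrocyte precursor-like cells 47 of 313 (interval 11.3 to 19.5%) and 8 of 186 (4.30%, 1.88 to 8.30) had a Kcnip3 UMI. Free RNA as a source was read from Kcnip3 in endothelial-like cells, with 0 of 113 in WT, which allows a share of up to 2.65%, and 1 of 52 in STING cKO, at medians of 9805 and 11243 UMIs before thinning. Microglia-like cells had 0 of 52 and 0 of 28 for Kcnip3, which allows up to 5.77% and 10.7%. The thinned STING cKO shares in radial glia/astrocyte-like and in oligodendrocyte precursor-like cells lay within the interval of the 1 endothelial-like cell with a UMI (1.92%, 0.0487 to 10.3), so that at this depth they could not be told from free RNA. Without thinning, 40.5% of WT and 18.5% of STING cKO radial glia/astrocyte-like cells had a Kcnip3 UMI. For Kcnj10 the thinned shares in radial glia/astrocyte-like cells were 6.87% (5.07 to 9.05) in WT and 7.65% (5.49 to 10.3) in STING cKO, with 0 endothelial-like and 0 microglia-like cells. Without thinning the Kcnj10 shares were 36.8% and 51.7%. The thinned intervals of the libraries overlapped for Kcnj10 and did not for Kcnip3.

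The 250 bases before the most upstream RefSeq start (GRCm38.p6) of Kcnk10 and Kcnip3 are shown because these 2 genes were lower in every group compared. Capitals mark GGGCGG or its reverse complement CCGCCC, the GC box bound by Sp1-family factors, searched on both strands. The windows are chr12:98578214-98578463 and chr2:127522095-127522344, each read 5′ to 3′ on the minus strand. GENCODE places the start of Kcnk10 upstream of the RefSeq start, so the last part of its window, with the motif, lies inside the gene as given above.
Kcnk10: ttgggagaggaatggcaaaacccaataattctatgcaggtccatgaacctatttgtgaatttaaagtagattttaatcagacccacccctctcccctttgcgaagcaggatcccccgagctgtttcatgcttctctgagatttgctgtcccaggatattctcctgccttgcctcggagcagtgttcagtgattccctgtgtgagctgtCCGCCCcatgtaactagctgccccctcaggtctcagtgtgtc
Kcnip3: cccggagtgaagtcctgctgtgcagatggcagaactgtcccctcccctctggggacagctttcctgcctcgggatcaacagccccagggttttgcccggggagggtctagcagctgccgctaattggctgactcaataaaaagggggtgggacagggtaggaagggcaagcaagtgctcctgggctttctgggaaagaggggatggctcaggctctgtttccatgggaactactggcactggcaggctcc
The Kcnk10 window held the motif at 1 place and the Kcnip3 window at 0. Of 133 promoters in the table for 97 of the 131 channel genes, 42.1% held it in these 250 bases, against 32.7% of all 32851 promoters. A match is a description of the letters only.

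Cacng1, the calcium channel gamma subunit known from skeletal muscle, was low in WT, with 149 UMIs (2.66 CPM, 2.25 to 3.13), and had 657 UMIs in STING cKO (11.9 CPM). It lies on chromosome 11 (chr11:107703218-107716522, minus strand), where Cacng4 lies beside it on the same strand (chr11:107732357-107794557). Cacng4 itself stood at 123 and 127 CPM over all cells. Cacng1 had 61 and 265 UMIs in upper-layer projection neuron-like cells (3.67 and 16.3 CPM), 6 and 67 in interneuron-like cells (2.28 and 17.3 CPM) and 1 and 24 in radial glia/astrocyte-like cells (0.207 and 5.34 CPM). It was higher in the STING cKO library in neurons and glia alike, with log2 ratios from 1.18 (0.51 to 1.91) in newborn projection neuron-like cells to 4.69 (2.07 to 10.05) in radial glia/astrocyte-like cells. With a stricter cell filter the direction turned in upper-layer projection neuron-like cells (-0.048, 14 UMIs) and striatal neuron-like cells (-0.75, 5 UMIs). Free RNA as a source was not tested for Cacng1 or Kcnk10.

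**Figure D4:**
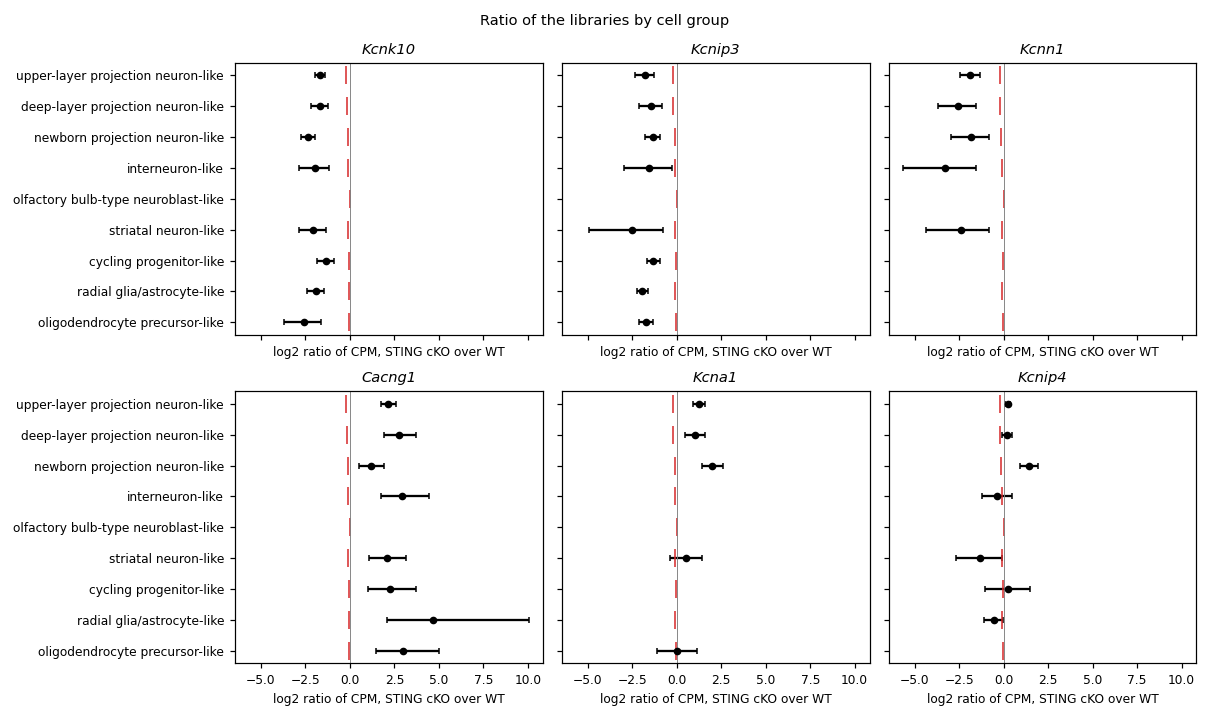
Log2 ratio of CPM, STING cKO over WT, for 6 channel genes in the 9 cell groups with at least 150 cells per library, with exact conditional binomial 95% intervals. Red ticks mark the median gene of each group, and a missing point means fewer than 20 UMIs over both libraries. Kcnk10, Kcnip3 and Kcnn1 lie to the left of the red tick and Cacng1 to the right in every group shown.

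Further genes differed in several neuron groups. Kcnn1, the SK1 channel gene, had 337 UMIs in WT and 81 in STING cKO. It stood at 7.70 and 2.08 CPM in upper-layer projection neuron-like cells, a log2 ratio of -1.89 (-2.48 to -1.33), and at 10.3 and 1.77 CPM in deep-layer projection neuron-like cells. Kcnn2 lay above the median gene in 8 of 9 groups compared, and past the fold in striatal neuron-like cells (1.24 relative to the median gene) and radial glia/astrocyte-like cells (1.27). The exception for Kcnn2 was upper-layer projection neuron-like cells, at -0.26. Scn2b had 170 and 14 UMIs over all cells, 42 and 4 of them in upper-layer projection neuron-like cells. Kcnh4, an Elk-family potassium channel gene, had 65 and 11 UMIs in upper-layer projection neuron-like cells (3.91 and 0.675 CPM). On the other strand, 43 of the 131 channel genes overlap a listed gene, and on the same strand 1 does. Among the 43 are Kcnn1, Kcnn2, Scn2b, Scn9a, Cacna2d2, Kcnip1 and Kcnip4. Strand use in counting is not stated, and whether reads of these neighbours entered the counts was not tested. In interneuron-like cells Cacna1e, the R-type calcium channel gene, had 69 and 26 UMIs (26.2 and 6.72 CPM), a log2 ratio of -1.96 (-2.67 to -1.29).

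Higher in STING cKO were Kcna1, Kcnj4 and Kcnip4 in part of the neuron groups. Kcna1 (Kv1.1), a low-threshold channel of axons, had 28 and 185 UMIs in newborn projection neuron-like cells (4.56 and 18.1 CPM), a log2 ratio of 1.99 (1.41 to 2.62). In upper-layer projection neuron-like cells it stood at 6.20 and 14.5 CPM, whereas in oligodendrocyte precursor-like cells it stood at 10.4 and 10.5 CPM. Kcnj4 (Kir2.3) had 73 and 192 UMIs in upper-layer projection neuron-like cells (4.39 and 11.8 CPM). Kcnip4, another Kv4 subunit, stood at 6.67 and 17.6 CPM in newborn projection neuron-like cells, but its log2 ratio turned to -0.24 (14 UMIs) with the stricter cell filter.

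Because mitochondrial RNA per barcode was distributed differently in the 2 libraries, the genes lower or higher in many groups were also read in all deposited barcodes split by mitochondrial share, without filters or cell groups, a step chosen after seeing the data. The 5 to 7% bin held 3213 WT and 1952 STING cKO barcodes, and the 7 to 10% bin 1825 and 2675. Kcnk10 was lower in STING cKO in all 6 bins, with log2 ratios from -2.26 to -1.56, and so was Kcnip3, from -2.79 to -1.05. Cacng1 was higher in all 6, from 1.48 to 4.13, as was Kcna1. In the 0 to 3% bin both rest on 1 UMI in WT, against 27 of Cacng1 and 61 of Kcna1 in STING cKO. The bins below 10% are largely the kept cells in which these genes were picked. Those above 10% are barcodes of the same 2 libraries, pooled over cell types. No bin is therefore separate evidence on genotype. Kcnn2 changed sign over the bins, from 1.48 at 0 to 3% to -0.71 at 20 to 100%, where it stood at 71.4 CPM in WT and 43.5 in STING cKO.

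**Figure D5:**
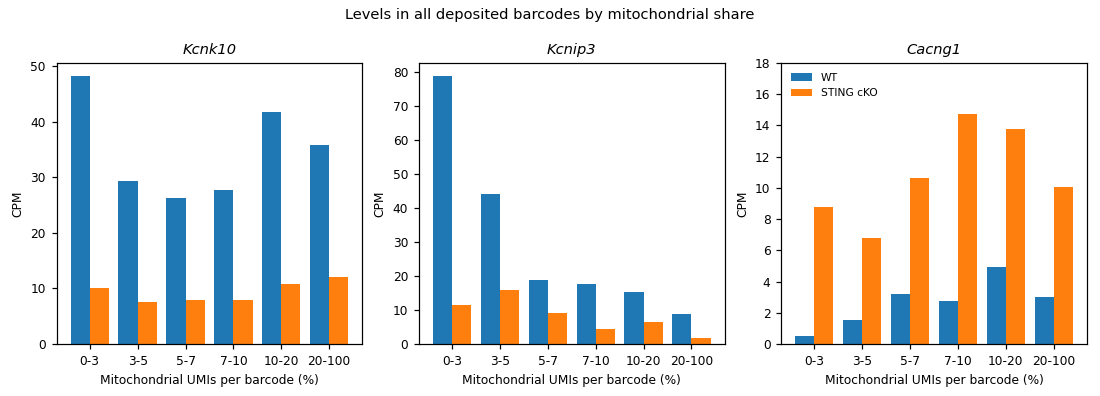
Levels in CPM of Kcnk10, Kcnip3 and Cacng1 in all deposited barcodes of WT (blue) and STING cKO (orange), split by the percent of UMIs from mitochondrial genes. Bars are single pooled values without an error bar. Kcnk10 and Kcnip3 are lower and Cacng1 higher in STING cKO in all 6 bins.

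Genes whose products work with these channels were read over all kept cells, where the median gene stood at -0.28 on the log2 scale. Of 9 sodium channel partners compared, 0 were past the fold, as were 0 of 9 Kv channel partners, 0 of 4 genes of the sodium leak channel complex, 0 of 5 HCN channel genes with their partner and 0 of 8 calcium channel partners. Of 2 sulfonylurea receptor genes 1 was lower, Abcc9, with 646 and 248 UMIs. Over all genes 6.67% were higher and 14.9% lower in all kept cells, and of the channel genes 8 and 15 of 112. Scn2a1, the main sodium channel gene of young axons, was listed with the sodium channel partners and had 3398 and 1725 UMIs (60.7 and 31.3 CPM), a log2 ratio of -0.95 (-1.04 to -0.87), or -0.68 relative to the median gene. It stood at 97.5 and 44.2 CPM in upper-layer and at 188 and 86.4 CPM in deep-layer projection neuron-like cells. Relative to the median gene, the sodium channel partners ran from -0.92 for Fgf11 (6.58 and 2.87 CPM) to 0.79 for Nfasc (41.6 and 59.3 CPM), which anchors sodium channels at the axon initial segment, with a median of -0.13. The calcium channel partners ran from -0.80 for Rimbp2 (7.58 and 3.58 CPM) to 0.89 for Stac2 (4.22 and 6.45 CPM), with a median of 0.021.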

How the data were processed

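Single-cell RNA was read as UMI counts in 1 WT and 1 STING cKO library. The deposited matrices hold raw counts per gene and barcode as the authors made them. The submitters' processing notes name STAR, Cell Ranger, Seurat and the build mm9, whereas the matrix header gives software 3.0.1, so the reference behind the counts is uncertain. The files hold no coordinates, and positions come from GENCODE vM21 (GRCm38), where all 131 genes matched by gene ID. A combined matrix, whose cells carry no library name, was not used.

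Cells with at least 500 genes and at most 10% mitochondrial UMIs were kept. Scrublet's automatic threshold marked 0.0443% of WT and 0.0329% of STING cKO cells, so a fixed score of 0.25, set after seeing the data, was used instead and removed 157 and 101 cells (2.32% and 1.66%). Both libraries were clustered together (scanpy 1.11.5, leidenalg 0.10.2, Python 3.11.15) on 2000 variable genes without the channel and partner genes, each gene centred within its library, with 30 principal components, 15 neighbours and resolution 1. Clusters were named from marker lists where at least 3 markers were detected and the 10 leading genes did not hold more markers of another type. UMIs were summed per cell group and library and divided by the total (CPM). Poisson, Clopper-Pearson and conditional binomial intervals have a confidence level of 95% (scipy 1.17.1). With 1 library per genotype no test was run and the spread between animals is unknown. Ratios and intervals were run on simulated counts that held counting error only. Such counts cannot speak to the spread between cells or animals.

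The genes named are those of a list of cortical channel genes, the 3 with the most UMIs in each role, the 3 highest and 3 lowest ratios per large cell group among genes with at least 50 UMIs there and Poisson intervals that do not overlap, and those at least 3 times above the next group. Further genes are named where a count or cluster turned on them, chosen after their values were seen. The channel genes, partner lists and markers were chosen with earlier results of these data known. Alternatives changed the cell filter, doublet removal, clustering, minimum UMIs and scaling (edgeR 4.0.16 for TMM).
Some items are not reported here.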

Additional observations from a re-analysis of the deposited data

Results flagged for a closer look

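Kcnip4, a Kv4 channel subunit gene, differed in opposite directions in 2 neuron groups. Relative to the median gene, with 0.5 UMIs added, its log2 ratio of STING cKO over WT was 1.51 in newborn projection neuron-like cells (41 and 180 UMIs) and -1.17 in striatal neuron-like cells (22 and 8 UMIs). With a stricter cell filter the log2 ratio in newborn projection neuron-like cells turned to -0.24 (14 UMIs). Cacng7, a gamma subunit gene, stood at -1.07 in striatal neuron-like cells and at 1.00 in cycling progenitor-like cells, both only just past the fold. These were the 2 of 53 channel genes past the fold in both directions, against 1.32% of all genes. With 1 library per genotype, the difference between cell groups was not tested.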

How the results depend on the processing

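Of 748 values of 42 gene and cell group pairs under 18 alternatives, 706 stayed within counting error in the same direction, 38 moved further and 4 reversed. The alternatives of minimum UMIs leave these values unchanged by construction. Those that restrict deep-layer or upper-layer clusters do so for pairs in other groups. The 706 therefore include values that could not move, and the pairs were chosen for their large ratios in these data. With a stricter cell filter (at least 1000 genes, at most 5% mitochondrial UMIs), Cacng1 in upper-layer and striatal neuron-like cells was at -0.048 and -0.75 (14 and 5 UMIs) and Kcnip4 in newborn projection neuron-like cells at -0.24 (14 UMIs), and with each library clustered alone Kcnip1 in radial glia/astrocyte-like cells was at -0.055. The stricter filter left 246 pairs of channel gene and group, 16 higher and 33 lower, with 0 genes lower and 0 higher in every group and 0 at 3 times the next group. A minimum of 1 UMI in each library gave 55 higher and 103 lower of 653 pairs, and 1 gene lower and 0 higher in every group. A minimum of 100 UMIs gave 15 higher and 24 lower of 285, 6 lower in deep-layer cells and 0 higher in every group. The count of genes higher in every group was 0 also with no cell filter, with each library alone (1 lower) and with a minimum of 10 UMIs. No cell filter gave 10 genes, and a resolution of 0.5 gave 8, at 3 times the next group. The shares of radial glia/astrocyte-like cells with a UMI at 2000 UMIs and without thinning were 18.3% and 40.5% (WT) and 5.66% and 18.5% (STING cKO) for Kcnip3, and 14.98% and 36.8%, and 15.6% and 51.7%, for Kcnj10. Where a new minimum or filter was set, fewer or more genes and cells entered by construction, and other causes were not tested. The counts of pairs and genes in this section stand without the share over all genes under the same setting. They show how the counts move with the setting and are not read as particular to channel genes. TMM and median-of-ratios scaling leave the counts past the fold as they are by construction. No paired analysis was possible because each genotype has 1 library. Depth limits genes under 20 UMIs: they enter no count past the fold except under the lower minimums, and the 3 reversals with a stricter filter rest on fewer UMIs than that. Leaving out clusters without a marker among their leading genes, taking the smaller deep-layer cluster alone and splitting by mitochondrial share were chosen after seeing the data.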
